A study of Mus musculus with 15 samples.

Results

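Scavenger receptors are the macrophage surface and vesicle receptors that take up modified lipoproteins, glycans, hemoglobin complexes, dead cells and microbes. Described here are the 9 genes Marco, Msr1, Cd163, Stab1, Stab2, Scarb1, Clec7a, Cd68 and Lrp1, chosen by name from a table of 25700 genes. All 9 are in the table and all 9 carried enough counts to be tested among 11883 genes. They were followed through the 5 groups of 3 RNA libraries that the study made from mouse bone marrow derived macrophages. The cells were marrow of femurs and tibias from mice 8 to 10 weeks old, cultured for 7 days with M-CSF at 10 ng/ml, a growth factor that all groups shared. The groups were IL-4 at 10 ng/ml (called M2 in the labels), IFN-γ at 10 ng/ml (called M1), untreated cells, heme-albumin at 200 µM and heme-albumin at 400 µM. Heme-albumin is hemin bound to human serum albumin, and no albumin-only group was analysed here. The sources used here do not give strain, sex, number of mice or time under treatment. Since no label ties a library to a mouse or culture of its own, the p-values below rest on library-to-library spread that may be technical.

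Scavenger receptors are grouped into classes by structure and share little sequence across classes. Class A receptors (Marco, Msr1) carry collagen-like stalks and bind bacteria and modified LDL, class B (Scarb1) exchanges cholesterol with HDL, and Cd68 is a heavily glycosylated protein of late endosomes and lysosomes. The stabilins (Stab1, Stab2) clear hyaluronan, phosphatidylserine-bearing cells and altered proteins, Cd163 takes up haptoglobin-hemoglobin complexes, Lrp1 takes up hemopexin-heme and many protease complexes, and Clec7a (dectin-1) is a lectin for fungal beta-glucan. In macrophages they are among the genes used to tell activation states apart.

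Levels are given as CPM (the count scaled to a library total of 1000000), and changes as log2 fold changes ± SE fitted to the counts. A gene is said to rise or fall where the adjusted p (edgeR quasi-likelihood, Benjamini-Hochberg over all genes tested) was under 0.05. Library totals ran from 8427352 to 28587416 counts. The fit also scaled libraries by TMM factors (0.886 to 1.12), so that a fitted fold change can differ from a ratio of CPM. Heme-albumin 400 µM replicate 2 and IFN-γ replicate 3 stood apart from their groups: chi-square per degree of freedom over all genes was 62.4 and 49 against the other 400 µM libraries and 135 and 130 against the other IFN-γ libraries, while the remaining pairs lay between 7.12 and 44.7. Results that rest on them are given with and without them. The macrophage markers fixed for the check (9 of 9 detected in every group) summed to 12969 to 18679 CPM with IL-4 and 12099 to 22908 CPM with IFN-γ, against 35476 to 40330 CPM untreated, and to 44445 to 52199 and 40942 to 49085 CPM at 200 and 400 µM. These sums follow the most abundant genes of the list. Adgre1, Cd14 and Aif1 averaged 1513, 479 and 48.6 CPM untreated, a small part of the untreated sum. A lower sum thus does not describe the list as a whole. Of the 9, 1 rose and 4 fell with IL-4 (median log2 fold change -0.51), and 4 rose and 2 fell with IFN-γ (median 0.38). At 200 µM 1 rose and 1 fell (median log2 fold change 0.10), and at 400 µM 0 rose and 2 fell (median -0.31). The part of this shift in the members' changes was not tested. Erythroid markers summed to at most 0.712 CPM. In bulk RNA, fewer cells of a type and less RNA per cell cannot be told apart.

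The 9 genes moved in different directions. With IL-4, Clec7a and Stab2 rose while Marco, Msr1 and Stab1 fell, that is 5 of 9, against 26.8% of all genes tested (14.9% higher and 12.0% lower). With IFN-γ, Msr1 and Clec7a rose while Cd163, Stab1, Scarb1 and Cd68 fell, 6 of 9, against 43.7% of all genes tested (24.1% higher and 19.5% lower). At 200 µM heme-albumin Msr1 rose and Stab2 fell, 2 of 9, against 23.4% of all genes tested (14.0% higher and 9.48% lower). At 400 µM Msr1 and Clec7a rose and Stab1 and Stab2 fell, 4 of 9, against 25.4% of all genes tested (14.7% higher and 10.8% lower). The median log2 fold change of the 9 was -0.28 with IL-4, -0.39 with IFN-γ, -0.13 at 200 µM and -0.34 at 400 µM. Over all genes tested the medians were 0 with IL-4, 0.05, 0.02 and 0.01 in the same order of treatments. These 4 comparisons share the untreated libraries. Msr1 was the member that passed in all 4, and Lrp1 passed in 0 of them.

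**Figure D1:**
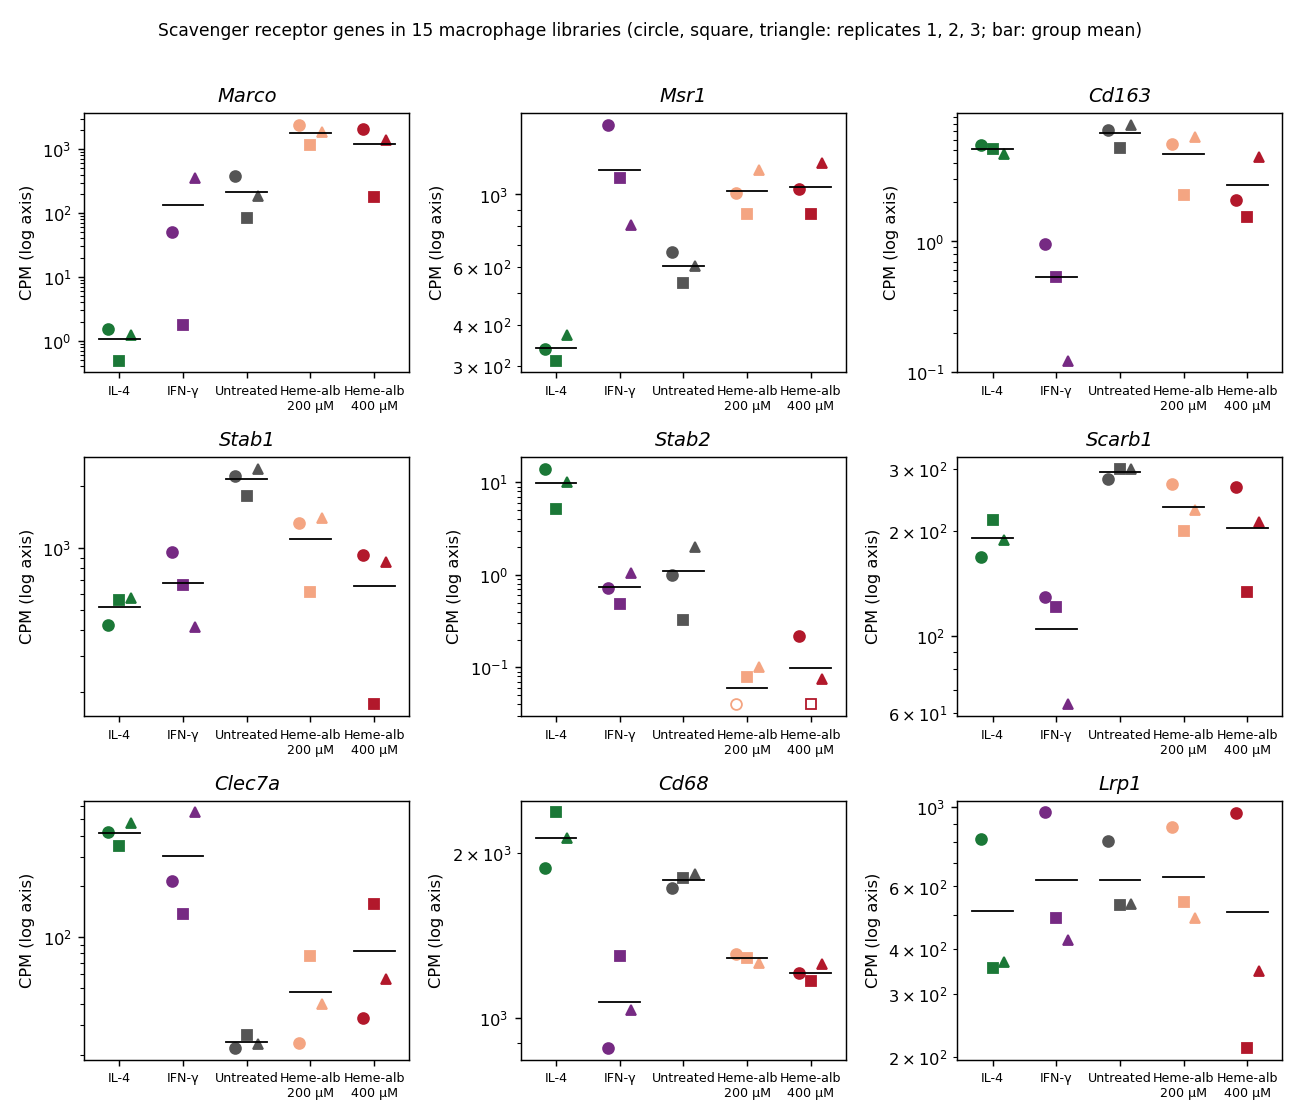
CPM (log axes) of each scavenger receptor gene in the 15 libraries, with groups along the x axis, symbols for replicates 1, 2 and 3, and a bar at each group mean; open symbols mark libraries with no Stab2 counts. Marco spans from 0.490 to 2394 CPM, while Lrp1 spans from 212 to 967 CPM with all 5 groups overlapping.

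Marco, the class A receptor for unopsonized bacteria and particles (ENSMUSG00000026390, GRCm38 chromosome 1, 120474538 to 120505024, minus strand), had the widest range of the members detected in every library. It stood at 1.51, 0.490 and 1.22 CPM in IL-4 replicates 1 to 3, against 381, 83.9 and 186 CPM in untreated cells. All 3 IL-4 libraries lay below every other library of the series, far below the untreated ones and just below IFN-γ replicate 2. The fall with IL-4 was -7.52 ± 1.61 (adjusted p = 0.00351), a level 184-fold lower. Across the heme series Marco stood at 381, 83.9 and 186 CPM untreated, at 2394, 1180 and 1879 CPM at 200 µM, and at 2042, 178 and 1408 CPM at 400 µM. Every 200 µM library lay above every untreated library, whereas 400 µM replicate 2 lay inside the untreated range.

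The difference of Marco with heme-albumin did not pass in the fit to all 15 libraries. It was 3.28 ± 1.24 at 200 µM (adjusted p = 0.0722) and 2.65 ± 1.21 at 400 µM (adjusted p = 0.124). With the replicate number as a block the 200 µM value was 3.57 ± 1.01 (adjusted p = 0.0224), and without both libraries that stood apart the 200 and 400 µM values were 3.28 ± 0.77 (adjusted p = 0.00541) and 3.17 ± 0.81 (adjusted p = 0.0109). Over the alternatives the adjusted p ran from 3.26e-06 to 0.196 at 200 µM and from 0.00256 to 0.291 at 400 µM. With IFN-γ, Marco stood at 50.4, 1.73 and 352 CPM, against 381, 83.9 and 186 CPM untreated. The IFN-γ libraries spread over more than the untreated range, and replicate 3 was the high one. The change was -0.39 ± 1.14 (adjusted p = 0.806), and without IFN-γ replicate 3 it was -2.95 ± 1.11 (adjusted p = 0.0499). Without both libraries that stood apart it was -2.96 ± 0.92 (adjusted p = 0.0196).

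Msr1, the macrophage class A receptor for acetylated LDL (ENSMUSG00000025044, chromosome 8, 39581685 to 39642673, minus strand), differed from untreated in 1 direction in all 3 replicates of each group. It stood at 667, 539 and 605 CPM untreated, at 1013, 875 and 1189 CPM at 200 µM and at 1042, 870 and 1248 CPM at 400 µM. Both heme-albumin groups lay wholly above the untreated libraries and overlapped each other. The rises were 0.97 ± 0.19 at 200 µM (adjusted p = 0.00247) and 1.00 ± 0.19 at 400 µM (adjusted p = 0.00186). With IFN-γ Msr1 stood at 1627, 1126 and 810 CPM, all above untreated cells, a rise of 1.15 ± 0.19 (adjusted p = 0.000358).

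With IL-4, Msr1 stood at 338, 312 and 372 CPM, below every other library. The fall was -0.71 ± 0.19 (adjusted p = 0.0135), and without IL-4 replicate 2 it was -0.64 ± 0.22 (adjusted p = 0.0571; range over the alternatives 1.36e-06 to 0.0571). Both class A receptors were thus lower with IL-4 than without treatment.

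Clec7a, the beta-glucan receptor dectin-1 (ENSMUSG00000079293, chromosome 6, 129461591 to 129472779, minus strand, annotated as a polymorphic pseudogene in GENCODE M21), was low in untreated cells and higher in both cytokine groups. It stood at 422, 346 and 477 CPM with IL-4 and at 216, 137 and 549 CPM with IFN-γ, against 22.0, 26.2 and 23.0 CPM untreated. No library of either cytokine group came near the untreated level, and the cytokine groups overlapped each other. The rises were 4.24 ± 0.69 with IL-4 (adjusted p = 0.000486), which is 18.9-fold, and 3.91 ± 0.68 with IFN-γ (adjusted p = 0.000502), which is 15-fold. Without IFN-γ replicate 3 and 400 µM replicate 2 the rise with IFN-γ was 3.01 ± 0.39 (adjusted p = 5.43e-05).

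Across the heme series Clec7a stood at 22.0, 26.2 and 23.0 CPM untreated, at 23.5, 77.2 and 40.1 CPM at 200 µM, and at 33.0, 157 and 56.4 CPM at 400 µM. Replicate 2 was the highest library at both doses, and replicate 1 at 200 µM lay inside the untreated range. The change at 200 µM did not pass (1.20 ± 0.63, adjusted p = 0.186), and the rise at 400 µM was 2.02 ± 0.64 (adjusted p = 0.0334). At 200 µM it passed with only the 6 libraries compared (adjusted p = 0.0274), with the block in those 6 (0.00549) and without both libraries that stood apart (0.0213), with a range from 0.00549 to 0.596. The call at 400 µM was lost without 400 µM replicate 2 (1.09 ± 0.58, adjusted p = 0.225), without both libraries that stood apart (1.10 ± 0.40, adjusted p = 0.0586) and without untreated replicate 1, 2 or 3 (adjusted p = 0.1, 0.0807 and 0.0948), with a range over the alternatives from 0.0151 to 0.225.

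The promoters of Marco and Clec7a are shown because these members parted furthest with IL-4. Both are the 250 bases before the start of transcription, from RefSeq on GRCm38.p6, read 5′ to 3′ on the gene's strand, chr1:120505025-120505274 (minus strand) for Marco and chr6:129472780-129473029 (minus strand) for Clec7a. Capitals mark matches to the motifs searched on both strands.
Marco: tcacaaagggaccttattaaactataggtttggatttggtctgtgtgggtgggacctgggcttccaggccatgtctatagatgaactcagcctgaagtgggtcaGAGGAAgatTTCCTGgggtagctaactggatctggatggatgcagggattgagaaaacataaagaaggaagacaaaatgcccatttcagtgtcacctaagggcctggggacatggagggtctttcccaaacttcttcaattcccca
Clec7a: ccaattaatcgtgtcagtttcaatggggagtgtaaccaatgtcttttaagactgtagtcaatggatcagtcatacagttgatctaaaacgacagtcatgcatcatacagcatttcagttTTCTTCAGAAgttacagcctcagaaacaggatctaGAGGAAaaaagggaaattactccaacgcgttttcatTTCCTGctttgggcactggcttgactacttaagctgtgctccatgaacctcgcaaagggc
The motifs searched were TGACNNNGC (antioxidant response element), TGANTCA (AP-1 type), CACGTG (E-box), a STAT6 type site (TTC and GAA with any 4 bases between), TTCNNNGAA (GAS) and the PU.1 cores GAGGAA and CAGGAA. The Marco promoter held GAGGAA at -146 to -141 and CAGGAA on the other strand at -137 to -132. The Clec7a promoter held TTCTTCAGAA, a match to the STAT6 type site, at -131 to -122, GAGGAA at -96 to -91 and CAGGAA on the other strand at -60 to -55. Positions count back from the start of transcription, and no 2 of these matches overlap. Of 32536 promoters of the same length, 5.89% held the STAT6 type site, 23.4% held GAGGAA and 25.6% held CAGGAA, so the PU.1 letters are common and a match describes the sequence only.

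Clec7a lies in a cluster of lectin receptor genes, and the neighbours are given beside it. Within 250 kb of its start the table held 17 protein-coding neighbours, of which 6 were tested. Clec12a, an inhibitory lectin 130 kb downstream, stood at 57.8 ± 3.03 CPM with IL-4 and 745 ± 54.6 CPM with IFN-γ, against 408 ± 29.6 CPM untreated (SD, n = 3). It fell with IL-4 (-2.71 ± 0.20, adjusted p = 8e-07), where Clec7a rose, and rose with IFN-γ (1.06 ± 0.19, adjusted p = 0.000615). Clec9a, a dendritic cell receptor for dead cells 63.9 kb downstream, had 2206 counts in the 3 IFN-γ libraries against 1 count in the 3 untreated ones. All 6 tested neighbours rose with IFN-γ, against 24.1% of all genes tested. Klrk1 had 3187 counts with IFN-γ and at most 3 in any other group, and Clec9a at most 2 outside IFN-γ. Both had enough counts to be tested only through the group where they are high. The 6 of 6 is thus partly fixed in advance and is not read against that share. The changes of the 6 ran from 0.75 ± 0.21 (Gabarapl1, adjusted p = 0.012) to 10.81 ± 0.49 (Klrk1, 1 count untreated, adjusted p = 1.85e-07). With IL-4, Gabarapl1 rose (0.91 ± 0.21, adjusted p = 0.00578) and Cd69 fell (-4.08 ± 0.44, adjusted p = 1.63e-05). Klrk1, Clec9a and Clec1b did not pass with IL-4. Olr1, the oxidized LDL receptor 34.4 kb upstream, had 3 to 30 counts per group and was not tested.

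**Figure D2:**
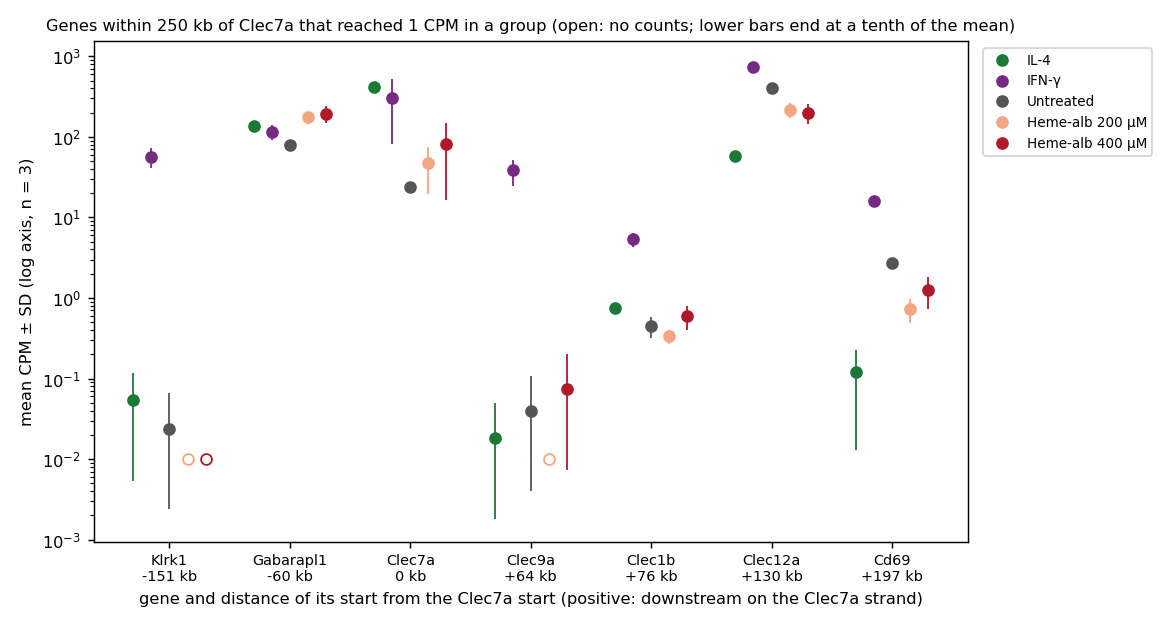
Mean CPM ± SD (log axis, n = 3) of Clec7a and of its neighbours that reached 1 CPM in a group, ordered by distance from the Clec7a start. Clec7a is lowest in untreated cells, whereas Clec12a is lowest with IL-4 at 57.8 CPM.

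The 2 stabilins, large multidomain receptors of macrophages and sinusoidal endothelium, parted with IL-4. Stab1 (ENSMUSG00000042286, chromosome 14, 31139013 to 31168641, minus strand, sharing 112 exonic bases with Nt5dc2 on the other strand) was highest in untreated cells. It stood at 423, 560 and 573 CPM with IL-4 and at 959, 661 and 414 CPM with IFN-γ, against 2250, 1796 and 2428 CPM untreated. No treated library of any kind reached the lowest untreated one. The falls were -1.94 ± 0.47 with IL-4 (adjusted p = 0.00802) and -1.50 ± 0.47 with IFN-γ (adjusted p = 0.0197). The IFN-γ call was lost without IFN-γ replicate 2 (adjusted p = 0.0537), IFN-γ replicate 3 (0.0617) or untreated replicate 3 (0.0518), with a range from 0.00199 to 0.0617. Without both libraries that stood apart the fall with IFN-γ was -1.29 ± 0.29 (adjusted p = 0.00309).

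Across the heme series Stab1 stood at 2250, 1796 and 2428 CPM untreated, at 1327, 611 and 1404 CPM at 200 µM, and at 925, 175 and 857 CPM at 400 µM. Replicate 2 was the lowest library at both doses. The change was -0.75 ± 0.46 at 200 µM (adjusted p = 0.258) and the fall at 400 µM was -1.55 ± 0.47 (adjusted p = 0.0271). Without both libraries that stood apart it was -1.10 ± 0.29 at 400 µM (adjusted p = 0.0126) and -0.75 ± 0.25 at 200 µM (adjusted p = 0.0321). The 200 µM value also passed with only the 6 libraries compared (0.0399) and with the block in those 6 (0.00164), with a range from 0.00164 to 0.579. The 400 µM call was lost without untreated replicate 1 (adjusted p = 0.0606) or 3 (0.0728), with a range from 0.00239 to 0.0728.

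Stab2, the hyaluronan clearance receptor best known from liver and spleen sinusoids (ENSMUSG00000035459, chromosome 10, 86841198 to 87008025, minus strand, sharing 141 exonic bases with Gm16268 on the other strand), was near the limit of detection except with IL-4. It had 224, 94 and 288 counts (14.1, 5.11 and 10.1 CPM) with IL-4, against 14, 5 and 17 counts (1.00, 0.328 and 2.02 CPM) untreated. The IL-4 libraries lay above all others, and the rise was 3.35 ± 0.55 (adjusted p = 0.000516), which is 10.2-fold. With IFN-γ it had 12, 11 and 17 counts, inside the untreated range in CPM, a change of -0.28 ± 0.62 (adjusted p = 0.738).

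With heme-albumin Stab2 had 0, 1 and 1 counts at 200 µM and 2, 0 and 1 counts at 400 µM. The untreated level was 17.6-fold that at 200 µM (95% exact counting interval 4.54 to 151) and 10-fold that at 400 µM (3.16 to 50.8), over summed counts. Such intervals cover counting error only. Both falls passed (adjusted p = 0.0165 at 200 µM and 0.0316 at 400 µM). The 200 µM call was lost without 200 µM replicate 1 (adjusted p = 0.0672) or 2 (0.054) or untreated replicate 3 (0.0528). The 400 µM call was lost without 400 µM replicate 2 (adjusted p = 0.0993) or 3 (0.102) or untreated replicate 1 (0.0605) or 3 (0.101), and without both libraries that stood apart (0.09). The ranges over the alternatives were 0.00346 to 0.0672 and 0.00694 to 0.102.

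The list of endothelial and sinusoidal markers, 8 of 8 in the table, was checked beside Stab2, which it does not hold. Its summed level was 645 to 737 CPM with IL-4 and 41.3 to 74.9 CPM with IFN-γ, against 179 to 231 CPM untreated, and 37.7 to 55.4 and 36.9 to 55.3 CPM at 200 and 400 µM. The sinusoidal lectin Clec4g was at 0 in all 5 groups, and Tek was at 0 in IFN-γ and untreated cells. Of 5 tested genes of the list, Pecam1 and Fcgr2b rose and Cdh5 fell with IL-4, and Kdr and Fcgr2b fell at 400 µM. The osteoclast list (7 genes) summed to 978 to 1393 CPM with IL-4 against 29.5 to 44.7 CPM untreated, with 5 of 5 tested genes higher and Calcr at 0. Among all genes tested, 14.9% rose and 12.0% fell with IL-4, and 14.7% rose and 10.8% fell at 400 µM. The part of either list in the change of Stab2 was not tested.

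The promoters of the stabilins are shown side by side because the pair moved apart with IL-4. They are the 250 bases before the start on GRCm38.p6 (RefSeq), chr14:31168642-31168891 (minus strand) for Stab1 and chr10:87007943-87008192 (minus strand) for Stab2, with the same motifs in capitals. The RefSeq start of Stab2 (87007942) lies inside the gene span given above, so part of its window does too.
Stab1: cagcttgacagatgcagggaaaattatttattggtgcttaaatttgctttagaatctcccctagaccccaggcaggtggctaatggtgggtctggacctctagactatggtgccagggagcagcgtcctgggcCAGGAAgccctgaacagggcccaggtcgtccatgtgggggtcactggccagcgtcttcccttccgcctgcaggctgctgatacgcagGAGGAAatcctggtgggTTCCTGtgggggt
Stab2: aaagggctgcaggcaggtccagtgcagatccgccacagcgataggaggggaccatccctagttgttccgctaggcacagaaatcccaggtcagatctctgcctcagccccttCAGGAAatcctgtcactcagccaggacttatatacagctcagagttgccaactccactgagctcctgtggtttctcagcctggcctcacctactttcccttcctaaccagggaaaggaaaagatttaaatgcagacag
Stab1 held CAGGAA at -117 to -112 and, on the other strand, at -13 to -8, with GAGGAA at -30 to -25. Stab2 held CAGGAA at -138 to -133. The letters of the other motifs searched are not in either window.

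Cd163, the haptoglobin-hemoglobin receptor (ENSMUSG00000008845, chromosome 6, 124304656 to 124330527, plus strand), was a rare transcript in all groups. It stood at 0.958, 0.534 and 0.122 CPM with IFN-γ, against 7.18, 5.25 and 7.83 CPM untreated. The IFN-γ libraries held 16, 12 and 2 counts and lay below every other library. The fall was -3.45 ± 0.51 (adjusted p = 0.000147), a level 10.9-fold lower, and without both libraries that stood apart it was -3.07 ± 0.46 (adjusted p = 0.00017). With IL-4 it stood at 5.52, 5.11 and 4.69 CPM, overlapping untreated cells (-0.28 ± 0.42, adjusted p = 0.664).

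Across the heme series Cd163 stood at 7.18, 5.25 and 7.83 CPM untreated, at 5.58, 2.28 and 6.31 CPM at 200 µM, and at 2.09, 1.54 and 4.48 CPM at 400 µM. The 400 µM libraries lay below the untreated ones and the 200 µM libraries overlapped them. The changes did not pass, at -0.31 ± 0.43 (200 µM, adjusted p = 0.633) and -1.07 ± 0.45 (400 µM, adjusted p = 0.0965). Without both libraries that stood apart the value at 400 µM was -0.80 ± 0.39 (adjusted p = 0.156). Without 400 µM replicate 3 it was -1.69 ± 0.50 (adjusted p = 0.0307). With the block in the 6 libraries compared it was -1.19 ± 0.28 (adjusted p = 0.0213). In 12 of 14 alternatives it did not pass, with a range from 0.0213 to 0.269. Among all genes tested, 14.0% rose and 9.48% fell at 200 µM, and 14.7% rose and 10.8% fell at 400 µM. Cd163 and Lrp1 belong to the list of hemoglobin and heme scavenging genes. Of that list, 4 of 8 tested genes rose and 0 fell at either dose (median 1.70 at 200 µM and 1.40 at 400 µM). These were Hmox1 (4.93 ± 0.30 and 4.76 ± 0.29), the iron exporter Slc40a1 (3.85 ± 0.43 and 3.75 ± 0.43), the heme transporter Slc48a1 and Blvrb, and neither receptor was among them.

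Scarb1, the HDL receptor SR-BI (ENSMUSG00000037936, chromosome 5, 125277087 to 125341094, minus strand), was highest in untreated cells. It stood at 168, 214 and 188 CPM with IL-4 and at 129, 121 and 63.5 CPM with IFN-γ, against 280, 301 and 301 CPM untreated. Both cytokine groups lay wholly below the untreated libraries, and IFN-γ also below IL-4. The fall with IFN-γ was -1.33 ± 0.23 (adjusted p = 0.000414). With IL-4 the change was -0.52 ± 0.22 (adjusted p = 0.103), and it passed with only the 6 libraries compared (0.00171), with the block in those 6 (7.58e-06) and without both libraries that stood apart (0.00305), with a range from 7.58e-06 to 0.271. Over the heme series it stood at 280, 301 and 301 CPM untreated, 272, 200 and 229 CPM at 200 µM and 267, 133 and 212 CPM at 400 µM. All heme-albumin libraries lay below the lowest untreated one in CPM, by little in replicate 1. CPM leave out the TMM factors, which for replicate 1 were 1.12 untreated, 0.976 at 200 µM and 1 at 400 µM. With the factors applied, replicate 1 of either dose no longer lies below untreated replicate 1. The fitted changes of -0.13 ± 0.22 and -0.34 ± 0.22 did not pass (adjusted p = 0.715 and 0.282).

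Cd68, the lysosomal glycoprotein used as a general macrophage marker (ENSMUSG00000018774, chromosome 11, 69664213 to 69666153, minus strand), was the most abundant member per length on average. It stood at 1728, 1801 and 1834 CPM untreated, at 1310, 1289 and 1261 CPM at 200 µM, and at 1207, 1169 and 1253 CPM at 400 µM. The 3 groups did not overlap. After TMM scaling the changes were -0.27 ± 0.14 at 200 µM (adjusted p = 0.185) and -0.37 ± 0.14 at 400 µM (adjusted p = 0.0713), and the blocked fit gave -0.37 ± 0.12 at 400 µM (adjusted p = 0.0365; range over the alternatives 0.0219 to 0.153). At 200 µM it passed with only the 6 libraries compared (-0.28 ± 0.09, adjusted p = 0.0297) and with the block in those 6 (0.0249), with a range from 0.0249 to 0.321. With IFN-γ it stood at 883, 1296 and 1037 CPM, all below untreated cells, a fall of -0.55 ± 0.14 (adjusted p = 0.00714).

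With IL-4 Cd68 stood at 1879, 2370 and 2129 CPM, all above the untreated libraries. The change was 0.36 ± 0.14 (adjusted p = 0.0722), and with the replicate block it was 0.36 ± 0.12 (adjusted p = 0.0388; range 0.00116 to 0.231).

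Lrp1, the LDL receptor family member that takes up hemopexin-heme (ENSMUSG00000040249, chromosome 10, 127538161 to 127621148, minus strand), stood at 815, 355 and 370 CPM with IL-4 and 967, 489 and 426 CPM with IFN-γ, against 806, 532 and 537 CPM untreated. It stood at 883, 544 and 490 CPM at 200 µM and at 966, 212 and 349 CPM at 400 µM. Replicate 1 was the highest library of all 5 groups, and the groups overlapped throughout. The fitted changes lay between -0.17 ± 0.48 and 0.24 ± 0.48, with adjusted p from 0.755 to 0.879. With the block over all libraries their SE was 0.22, and adjusted p ran from 0.299 to 0.711. With the block in only the 6 libraries compared, Lrp1 was lower with IL-4 than untreated (-0.27 ± 0.10, adjusted p = 0.0344; range over the alternatives 0.0344 to 0.995).

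**Figure D3:**
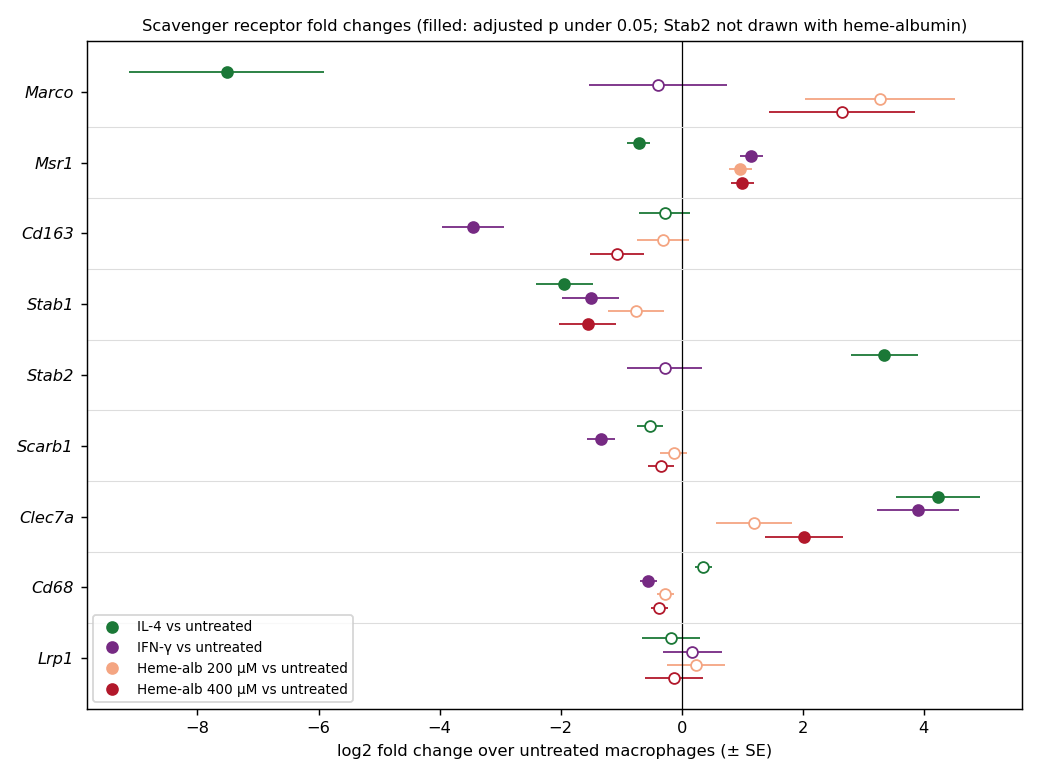
Fitted log2 fold changes ± SE over untreated macrophages for IL-4, IFN-γ and heme-albumin at 200 and 400 µM (x axis) by gene (y axis), filled where the adjusted p is under 0.05; Stab2 is not drawn for heme-albumin, where it had 2 and 3 counts. Clec7a lies above 0 in all 4 comparisons and Stab1 below 0 in all 4.

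Replicates with the same number share a date in the column headers (3 dates in all), and each treated library can be set against the untreated one of that date. The meaning of the date is not stated. Within dates, Marco differed from untreated by log2 ratios of 2.65, 3.81 and 3.34 at 200 µM and 2.42, 1.08 and 2.92 at 400 µM, higher in 6 of 6 libraries. With IFN-γ its ratios were -2.92, -5.60 and 0.92, lower in replicates 1 and 2 and higher in replicate 3. Clec7a was higher within every date for all 4 treatments, by 0.10 to 1.56 at 200 µM, 0.59 to 2.58 at 400 µM, 3.72 to 4.37 with IL-4 and 2.39 to 4.58 with IFN-γ. Stab1 was lower within every date for all 4, with ratios from -3.36 to -0.76. Cd68 was lower on all 3 dates at both doses, with ratios from -0.62 to -0.40. These ratios are of CPM without the TMM factors, which were 1.08 to 1.12 untreated and 0.92 to 1 with heme-albumin. Scaled by the factors, the ratios at both doses would lie higher.

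**Figure D4:**
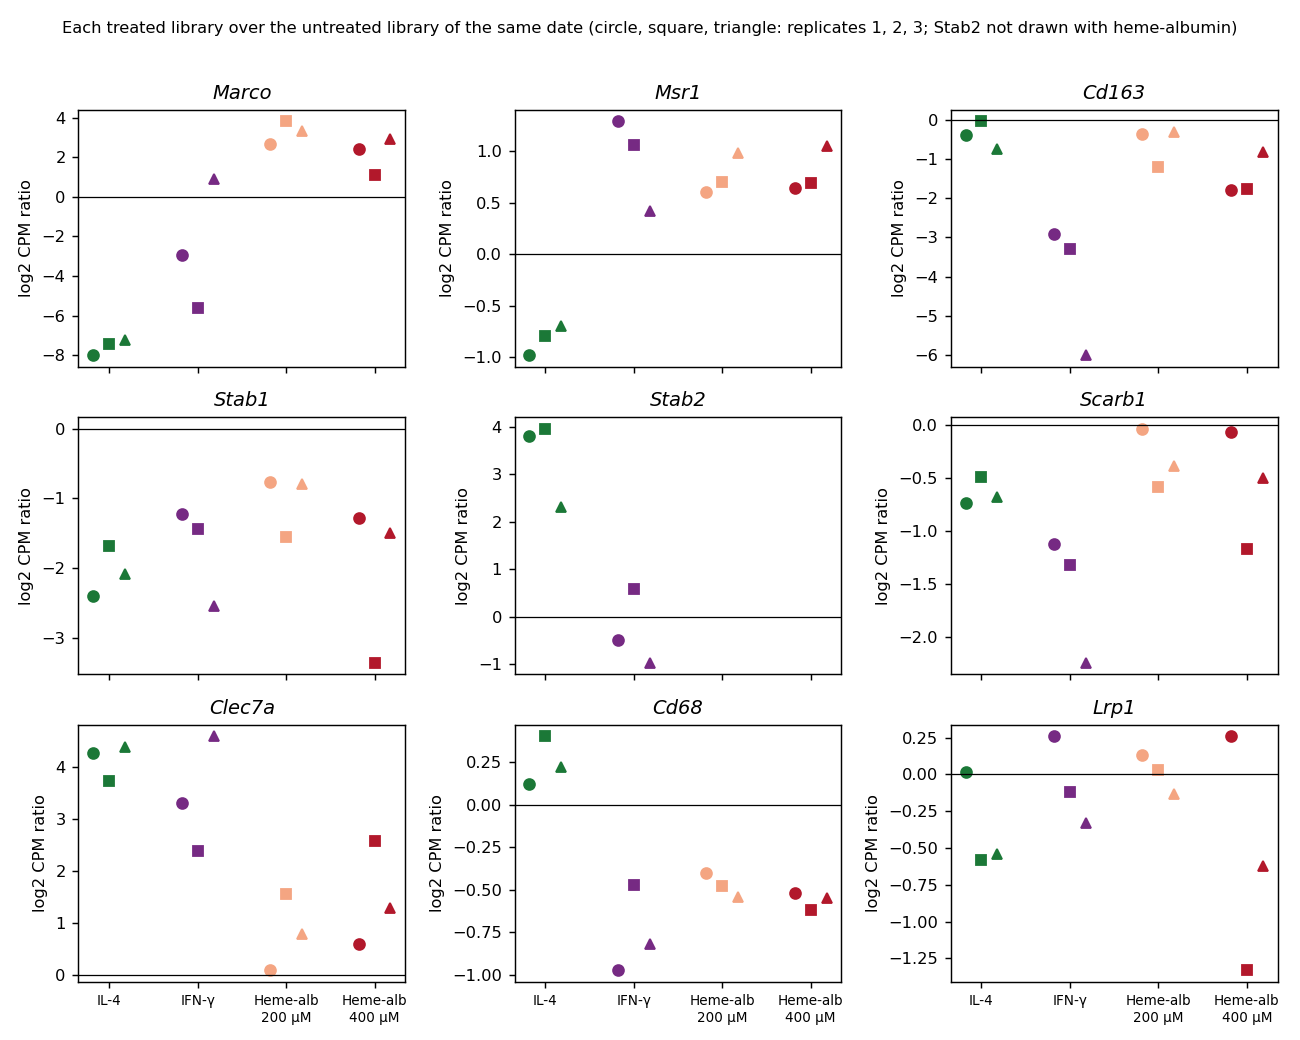
log2 ratio of CPM (y axis, without TMM factors) of each treated library to the untreated library with the same replicate number, by treatment (x axis) and gene. Symbols mark replicates 1, 2 and 3. Stab2 is not drawn for heme-albumin, where libraries held 0 to 2 counts. The 400 µM replicate 2 library is the lowest for Stab1 (-3.36) and the highest for Clec7a (2.58) among the 3 of its dose.

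The doses were compared directly to ask whether 400 µM acted beyond 200 µM. edgeR called 0 of 9 members and 0 of 11883 genes (0%), with 0 members and 1796 genes at an unadjusted p under 0.05. DESeq2 called 11 genes and 0 members. Apart from Stab2, with 3 and 2 counts, the differences of 400 minus 200 µM ran from -0.80 ± 0.46 (Stab1, adjusted p = 0.405) to 0.81 ± 0.61 (Clec7a, adjusted p = 0.519). With the block and only the 6 libraries compared, Stab1 (adjusted p = 0.0434) and Clec7a (0.68 ± 0.13, adjusted p = 0.0414) passed among 244 genes, and without both libraries that stood apart Clec7a turned to -0.10 ± 0.40 (adjusted p = 0.959).

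Heme-albumin at 400 µM was then set against each cytokine. Against IL-4, Marco and Msr1 were higher and Stab2, Clec7a and Cd68 lower, 5 of 9, against 40.2% of all genes tested (20.5% higher and 19.7% lower). Marco differed most, at 2042, 178 and 1408 CPM at 400 µM against 1.51, 0.490 and 1.22 CPM with IL-4 (10.17 ± 1.75, adjusted p = 0.000479). Msr1 was higher by 1.71 ± 0.19 (adjusted p = 1.55e-05), and Cd68 was lower (-0.73 ± 0.14, adjusted p = 0.00107). The IL-4 level of Stab2 was 101-fold that at 400 µM (counting interval 34.3 to 490, adjusted p = 2.7e-05). Clec7a was lower (-2.23 ± 0.63, adjusted p = 0.012), a call lost without 400 µM replicate 3 (0.0511, range 8.37e-05 to 0.0511). Without both libraries that stood apart, Stab1 (0.85 ± 0.27, adjusted p = 0.0254) and Scarb1 (0.40 ± 0.13, adjusted p = 0.0241) were also higher.

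Against IFN-γ, Cd163 and Scarb1 were higher at 400 µM and Stab2 and Clec7a lower, 4 of 9, against 42.9% of all genes tested (20.6% higher and 22.3% lower). Cd163 stood at 2.09, 1.54 and 4.48 CPM at 400 µM against 0.958, 0.534 and 0.122 CPM with IFN-γ, without overlap (2.37 ± 0.54, adjusted p = 0.00288). Scarb1 was higher by 0.99 ± 0.22 (adjusted p = 0.00304). The IFN-γ level of Stab2 was 7.52-fold that at 400 µM (counting interval 2.4 to 38, adjusted p = 0.0314), a call lost without 400 µM replicate 2 (0.0904) or 3 (0.104) or IFN-γ replicate 3 (0.0894) or both libraries that stood apart (0.202), with a range from 0.00572 to 0.202. Clec7a was lower (-1.89 ± 0.62, adjusted p = 0.0251), a call lost without 400 µM replicate 1 (0.0823) or 3 (0.0914) or IFN-γ replicate 3 (0.157), with a range from 0.00355 to 0.157. With the 6 libraries compared alone, Clec7a was also lost (adjusted p = 0.116), and with the block added Cd163 (0.0854) and Scarb1 (0.0596) were lost too. Without both libraries that stood apart, Clec7a stayed lower (-1.91 ± 0.43, adjusted p = 0.00355). Marco differed by 3.04 ± 1.22 (adjusted p = 0.0602), by 3.49 ± 1.06 with the block (adjusted p = 0.0187) and by 5.61 ± 1.26 without IFN-γ replicate 3 (adjusted p = 0.00298). Without both libraries that stood apart it differed by 6.13 ± 1.09 (adjusted p = 0.000627). Msr1 and Stab1 lay at -0.15 ± 0.19 and -0.05 ± 0.46, and neither passed (adjusted p = 0.553 and 0.948).

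Levels of different genes can be compared only per length, so counts were divided by exon length and library total. On that scale (RPKM) Cd68 took the largest share of the summed level of the 9 genes in every group mean. In replicate 1 of each dose Marco was above it, at 46.6% against 39.1% at 200 µM and 44.7% against 40.4% at 400 µM. Its share was 84.2 ± 2.52% with IL-4 and 63.6 ± 10.2% with IFN-γ, against 74.2 ± 4.90% untreated (SD, n = 3), and 44.9 ± 7.52% and 54.0 ± 17.4% at 200 and 400 µM. Marco took 5.77 ± 3.86% untreated, 39.9 ± 7.43% at 200 µM and 29.1 ± 19.4% at 400 µM, with 7.31% in 400 µM replicate 2. With IL-4 Marco took 0.0287 ± 0.0158%. Clec7a took 7.91 ± 1.62% with IL-4 and 8.39 ± 5.65% with IFN-γ, against 0.470 ± 0.0678% untreated. Msr1 took 14.3 ± 6.03% with IFN-γ against 4.95 ± 0.312% untreated. The summed level was 2007 ± 176 with IL-4, 1338 ± 96.5 with IFN-γ and 1920 ± 94.2 untreated, and 2320 ± 376 and 1904 ± 574 at 200 and 400 µM, in RPKM. Cd163 and Stab2 had mean levels per length of at most 1.24 and 1.11, the lowest of the 9 except with IL-4, where Marco was lower (0.557, against 0.935 for Cd163 and 1.11 for Stab2).

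**Figure D5:**
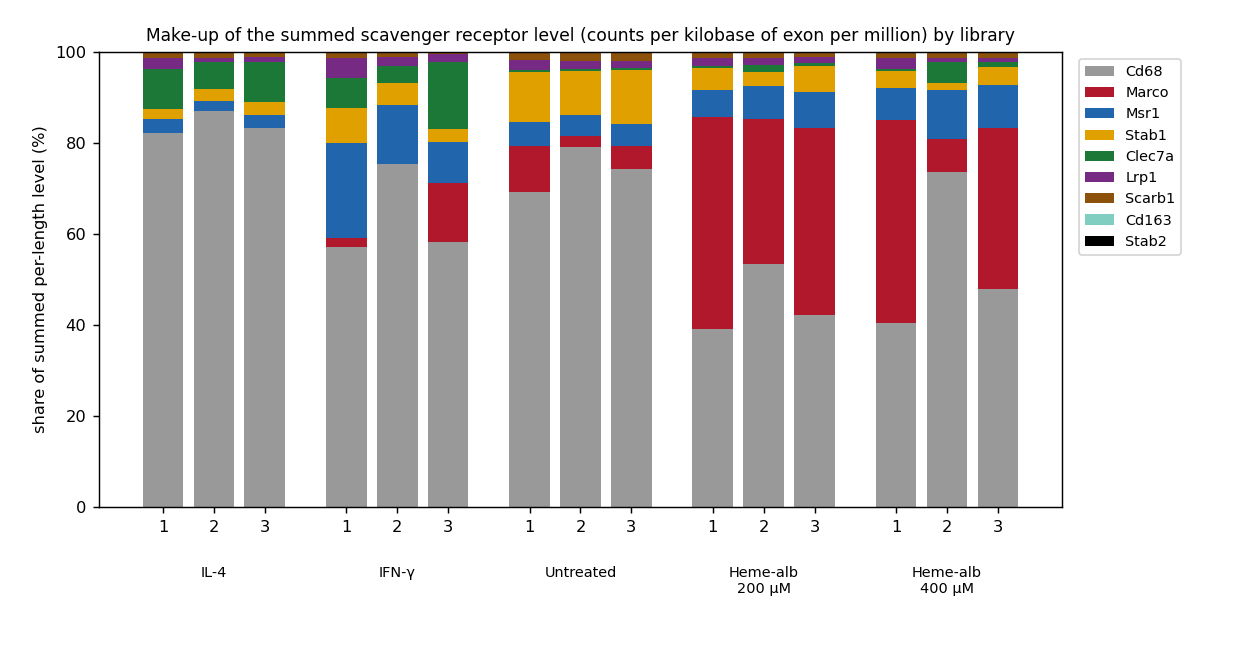
Share (%) of each gene in the summed per-length level of the 9 scavenger receptor genes, 1 bar per library (replicates 1 to 3 within each group). Cd68 is the largest share on average in every group, and Marco takes between 31.9 and 46.6% at 200 µM.

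Over the 15 libraries, members were correlated with each other and with all genes tested of at least 5 CPM on average, as a description of libraries that share their groups and dates. Among members the strongest relations of log2 CPM were Msr1 with Cd68 (Pearson r = -0.92) and Cd163 with Scarb1 (r = 0.87). Marco and Msr1, both of class A, had r = 0.66, and the stabilins r = -0.15. The gene most like Marco was Tnip3 (r = 0.969), followed by Siglece (0.956) and Twf1 (0.939). The gene most like Msr1 was the glutaredoxin Glrx (r = 0.990), and for Cd163 it was Spcs1 (0.969). For Stab1 it was Eid1 (0.923), for Stab2 Snn (0.961), and for Scarb1 Wdr6 (0.964). For Clec7a it was Cipc (0.954), for Cd68 Prkaca (0.944), and for Lrp1 Gdf3 (0.894), the lowest of the 9.

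Other scavenger receptors moved in both directions as the members did. Of 16 listed, 10 were tested: 3 rose and 2 fell with IL-4 (median 0.02), 6 and 3 with IFN-γ (1.06), 2 and 2 at 200 µM (0.18), and 3 and 2 at 400 µM (0.23). Counts of this and the later lists stand against the shares of all genes tested. With IL-4 14.9% rose and 12.0% fell, and with IFN-γ 24.1% and 19.5%. At 200 µM 14.0% rose and 9.48% fell, and at 400 µM 14.7% and 10.8%. Cd36, the class B fatty acid and oxidized LDL receptor, rose with IL-4 (1.61 ± 0.28) and at both doses, by 1.69 ± 0.28 at 200 µM and 2.27 ± 0.29 at 400 µM. With IFN-γ Cd36 stood at 2270 to 2724 CPM, against 1079 to 1212 CPM untreated. The mannose receptor Mrc1 fell with IFN-γ (-3.86 ± 0.64) and at both doses (-2.44 ± 0.60 and -3.22 ± 0.62). Cxcl16, a receptor for oxidized lipids and a chemokine, fell with IL-4 (-3.93 ± 0.52). Cd5l, a secreted protein with scavenger receptor domains, rose at both doses (2.34 ± 0.44 and 2.32 ± 0.44).

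Of the other myeloid C-type lectins, 14 of 17 were tested: 5 rose and 4 fell with IL-4 (median -0.39), 6 and 3 with IFN-γ (0.30), 8 and 2 at 200 µM (0.81), and 7 and 2 at 400 µM (0.84). Clec4n (dectin-2), which like Clec7a binds fungal glycans, rose with heme-albumin far beyond it, by 5.57 ± 0.73 at 200 µM and 6.16 ± 0.75 at 400 µM. Its mean level was 6.93 CPM with IL-4 and 77.6 CPM with IFN-γ, against 27.6 CPM untreated, and 1117 and 1671 CPM at 200 and 400 µM. The galactose lectins Mgl2 (7.89 ± 0.50) and Clec10a (3.44 ± 0.33) rose with IL-4. Of 16 genes of Clec7a signalling, 3 rose and 5 fell with IL-4 (median -0.23), 7 and 0 with IFN-γ (0.36), 2 and 0 at 200 µM (0.16), and 4 and 1 at 400 µM (0.18). The NADPH oxidase subunit Cybb rose with IFN-γ (1.80 ± 0.37), and the phospholipase Plcg2 fell with IL-4 (-0.45 ± 0.09).

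For Lrp1's relatives in the LDL receptor family, 12 of 13 were tested: 1 rose and 2 fell with IL-4 (median -0.08), 4 and 2 with IFN-γ (0.01), 5 and 3 at 200 µM (0.34), and 3 and 3 at 400 µM (0.31). Sorl1 rose at 400 µM (2.51 ± 0.61) and Lrp12 fell at 200 µM (-1.42 ± 0.21). Of the ligands and adaptors of Lrp1, 9 of 13 were tested: 0 rose and 0 fell with IL-4 (median -0.85), 3 and 2 with IFN-γ (-0.41), 2 and 1 at 200 µM (-0.06), and 2 and 3 at 400 µM (-0.28). The HDL and cholesterol handling list of Scarb1, 9 of 11 tested, had 4 higher and 1 lower with IL-4 (median 0.70), 4 and 1 with IFN-γ (0.56), 1 and 1 at 200 µM (-0.38), and 1 and 3 at 400 µM (-0.43). The cholesterol exporter Abca1 fell with IL-4 (-1.36 ± 0.28) and at 400 µM (-1.91 ± 0.29), and Abcg1 rose with IL-4 (1.97 ± 0.32) and IFN-γ (1.74 ± 0.32).

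Of the lysosomal partners of Cd68, 9 of 11 were tested: 3 rose and 0 fell with IL-4 (median 0.32), 1 and 2 with IFN-γ (-0.05), 2 and 2 at 200 µM (-0.07), and 4 and 1 at 400 µM (0.27). The protease Ctsl rose with IL-4 (1.15 ± 0.14) and at 400 µM (1.15 ± 0.14), and fell with IFN-γ (-0.48 ± 0.14). Of the sheddases that cut receptors from the surface, 7 of 8 were tested: 0 rose and 2 fell with IL-4 (median 0), 1 and 0 with IFN-γ (0.25), 3 and 0 at 200 µM (-0.04), and 2 and 0 at 400 µM (-0.06). Adam17 fell with IL-4 (-1.24 ± 0.20), and Adam8 rose at both doses (1.22 ± 0.16 and 1.08 ± 0.15). Of 18 transcription factors, 6 rose and 3 fell with IL-4 (median 0.24), 9 and 1 with IFN-γ (0.83), 7 and 2 at 200 µM (0.32), and 5 and 3 at 400 µM (0.42). Maf fell at 400 µM (-1.99 ± 0.36), and Pparg and Klf4 rose with IL-4 (2.34 ± 0.24 and 3.43 ± 0.32).

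Markers of other cell types moved in some groups where members changed. The T and NK cell list (7 genes) summed to 170 to 190 CPM with IL-4 and 67.9 to 185 CPM with IFN-γ against 52.7 to 76.6 CPM untreated, and to 57.2 to 145 CPM at 200 µM and 110 to 409 CPM at 400 µM, with Cd3e, Cd3d, Ncr1 and Gzmb at 0 in all 5 groups. At 200 µM Klrb1c was at 0 as well and Cd2 averaged 0.357 CPM, so nearly all of that sum was Il7r. Cd2 averaged at most 1.65 CPM in any group. The megakaryocyte and platelet list (5 genes) summed to 85.9 to 113 CPM with IL-4 and up to 35 CPM with IFN-γ against 141 to 276 CPM untreated, and to 397 to 459 and 362 to 626 CPM at 200 and 400 µM, with Gp9 at 0 throughout. The dendritic cell list (8 genes) summed to 2.77 to 6.02 CPM with IL-4 and 24.1 to 60.5 CPM with IFN-γ, against 0.525 to 1.78 CPM untreated. Of its 3 tested genes, 2 rose with IL-4, and 1 rose and 1 fell with IFN-γ. Clec9a alone averaged 38.3 CPM with IFN-γ. Neutrophil markers (10 genes) summed to 2.39 to 53.1 CPM over all libraries. The stromal list (7 genes) summed to at most 3.21 CPM untreated, 19.7 to 28.0 CPM at 200 µM and 16.8 to 23.1 CPM at 400 µM. Only 1 of the 7 was tested. Acta2 alone averaged 2.35 CPM untreated, 22 CPM at 200 µM and 19.9 CPM at 400 µM. The remaining lists, of B cells (6 genes) and of mast cells and basophils (5 genes), summed to at most 3.16 and 0.878 CPM in any library. Their part in the members' results was not tested.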

How the data were processed

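RNA of 15 mouse macrophage libraries was measured. The authors deposited raw counts, 1 table of genes by libraries. Per the submitters' processing notes, STAR 2.7.0e, SAMtools 1.9, featureCounts and GRCm38.p5 were used. Annotation and strand setting: not given in the sources used here; overlapping and antisense genes are uncertain. Of 25700 identifiers, 113 matched no symbol in GENCODE M21. The treatment tags read 400, 401 and 402 µM at the higher dose, titles 400 µM, which was used.

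edgeR 4.0.16 (R 4.3.3; filterByExpr, TMM, quasi-likelihood, 1 mean per group over 15 libraries) gave 7 comparisons, Benjamini-Hochberg adjusted at 0.05. SE is the log2 fold change over the square root of F. The test was checked on simulated counts. Members and lists were chosen with earlier results of these data known. Named were all members, at most 4 genes of smallest p per list and comparison, and the 3 genes most like each member. Per-length levels used exon lengths of GENCODE M21. Figures were drawn with matplotlib 3.10.9.

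The replicate numbers pair the samples through the dates in the column headers: 30 same-number pairs had a median correlation of deviations of 0.144 (19 over 0.1), and 60 other pairs -0.0688. Deviations from a group mean sum to 0 within the group. The value of the other pairs thus follows largely from that of the same-number pairs and is no separate reference. Of 15 libraries, 14 were closest to a library of their own number in another group. Alternatives were DESeq2 1.42.0, its size factors in edgeR, no filter, a floor of 5 CPM in 3 libraries, a fit to the 6 libraries of a comparison, the replicate block, the block in those 6, leaving out each library, and leaving out both libraries that stood apart.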

Additional observations from a re-analysis of the deposited data

How the results depend on the processing

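Of the fitted log2 fold changes of members under the alternatives, 770 kept direction and side of the threshold, 42 newly passed, 31 no longer passed and 31 reversed. The cause was not tested; fits to 6 libraries or without the libraries that stood apart use fewer samples. Against untreated cells, the rises of Msr1 with heme-albumin and IFN-γ and of Clec7a with both cytokines passed in all 14 alternatives. So did the falls of Marco and Stab1 and the rise of Stab2 with IL-4. The falls of Cd163, Scarb1 and Cd68 with IFN-γ passed in all 14 as well. Stab2 and Cd163 are limited by depth. Fits to the 6 libraries compared left Stab2 out, as too low, wherever 400 or 200 µM was set against untreated cells, each other or IFN-γ.

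At 200 µM against untreated, 5 members passed with only the 6 libraries compared (4456 genes), 5 with the replicate block added (4936) and 5 without both libraries that stood apart (4430). With IL-4, 5149 genes passed with only the 6 libraries, and 8 members and 6552 genes with the block added. Between doses, 11 genes passed with DESeq2, 2 members and 244 genes with the block and only the 6 libraries, and 1 gene without both libraries that stood apart. At 400 µM against IFN-γ, 2 members and 2741 genes passed with only the 6 libraries, and 1 member and 2038 genes with the block added. The replicate block alone gave 6 members and 3445 genes with IL-4, 6 and 5532 with IFN-γ, 3 and 3157 at 200 µM, and 5 and 3409 at 400 µM against untreated.

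Without both libraries that stood apart, Lrp1 at 400 µM against untreated was 0.24, Clec7a at 400 against 200 µM -0.10, and Stab1 at 400 µM against IFN-γ 0.19. Lrp1 at 400 µM against IL-4 was -0.05 with the replicate block and -0.09 with the block and only the 6 libraries.

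Leaving out each library in turn, 1 to 2 members passed at 200 µM (1679 to 2226 genes), 1 to 4 at 400 µM (2165 to 3013 genes) and 2 to 4 at 400 µM against IFN-γ (4256 to 5547 genes). The log2 fold change then ran from -0.93 to 0.23 (400 µM), -0.05 to 0.43 (200 µM), -0.66 to 0.04 (IL-4) and -0.22 to 0.38 (IFN-γ) for Lrp1 against untreated. For Lrp1 at 400 µM it ran from -0.76 to 0.54 against IL-4 and from -1.11 to 0.09 against IFN-γ. For Cd163 at 200 µM it ran from -0.56 to 0.01. With IFN-γ it ran from -2.95 to 0.28 for Marco and from -0.78 to 0.35 for Stab2. Between doses it ran from -0.24 to 1.19 for Stab2, -0.11 to 1.41 for Clec7a and -0.11 to 0.14 for Msr1. At 400 µM it ran from -0.03 to 0.38 for Scarb1 against IL-4, and against IFN-γ from -0.35 to 0.40 for Stab1 and from -0.32 to 0.10 for Msr1.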
